A study of Mus musculus with 2 samples.

Results

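*Upp1* and 7 further genes of pyrimidine metabolism were examined in mouse embryonic stem cells (mESCs) depleted of AIMP3, a non-enzymatic protein of the multi-tRNA synthetase complex. The members are *Upp1*, which acts in uridine breakdown, *Uck1*, *Uck2* and *Cda*, which act in salvage, *Cad*, *Dhodh* and *Umps*, which carry out de novo synthesis, and *Ctps*, which forms CTP. They were found by matching the accession of each probe to a gene symbol, which gave 8 genes with 10 probes, of 24022 genes tested and 55681 probes on the array. *Upp1* was chosen by its measured ratio in this comparison, the only one in the series, and the others were proposed with these ratios known, so the values of the members are a description and are given with no test.

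The cells were AIMP3f/f;cre-ERT2 mESCs, in which both *AIMP3* alleles are flanked by loxP sites and tamoxifen switches on a Cre recombinase fused to a modified estrogen receptor. AIMP3-depleted cells (2 replicates) were kept for 4 days in 2 μM tamoxifen, which the methods give as 4-hydroxytamoxifen (4-OHT), and control cells of the same genotype in ethanol, both in medium with leukemia inhibitory factor. Cy5 carried the RNA of 1 AIMP3-depleted replicate on each array. Cy3 carried the same pool of control RNA on both, so the control is 1 sample and its spread between cultures was not measured. Dye swaps were not made, 1 slide held both arrays, and no sample with Cre activated by 4-OHT and *AIMP3* left intact was analysed here. Effects of the dyes, of 4-OHT and of Cre therefore cannot be told apart from that of AIMP3 depletion. The mESC clones were derived from mouse blastocysts, and the number of clones behind these arrays is not given in the sources used here. Nothing in the labels says that the replicates came from separate cultures, so the spread between them may be technical.

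Pyrimidine nucleotides are made along a pair of routes. In de novo synthesis, the enzymes CAD, DHODH and UMPS build UMP from simple precursors, and CTP synthase then turns UTP into CTP. In salvage, uridine-cytidine kinases phosphorylate ready-made nucleosides, and cytidine deaminase turns cytidine into uridine. Uridine phosphorylase, the product of *Upp1*, cleaves uridine reversibly to uracil and ribose 1-phosphate, so it takes uridine away from salvage and releases a sugar phosphate. Rapidly dividing cells such as mESCs need a large supply of these nucleotides for RNA and DNA.

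The promoter of *Upp1* is shown because it is the one member whose ratio stood far from 0. RefSeq lists 3 windows for it on GRCm38.p6, each from 250 bases before to 50 bases after an annotated start. Windows 1 and 2 share 205 bases, and the start of window 3 lies 499 bases downstream of that of window 1, so windows 1 and 3 are given, both 5′ to 3′ on the plus strand (chr11:9117758-9118057 and chr11:9118257-9118556). Capitals mark matches on either strand to a GC box (GGGCGG) or an AP-1 element (TGAGTCA), motifs chosen with the sequences in view.
*Upp1* window 1: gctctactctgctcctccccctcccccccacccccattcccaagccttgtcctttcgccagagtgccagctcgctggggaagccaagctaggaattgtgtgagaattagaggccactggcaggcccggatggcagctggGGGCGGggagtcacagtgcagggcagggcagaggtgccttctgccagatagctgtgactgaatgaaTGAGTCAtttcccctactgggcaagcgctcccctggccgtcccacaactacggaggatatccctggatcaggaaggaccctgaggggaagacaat
*Upp1* window 3: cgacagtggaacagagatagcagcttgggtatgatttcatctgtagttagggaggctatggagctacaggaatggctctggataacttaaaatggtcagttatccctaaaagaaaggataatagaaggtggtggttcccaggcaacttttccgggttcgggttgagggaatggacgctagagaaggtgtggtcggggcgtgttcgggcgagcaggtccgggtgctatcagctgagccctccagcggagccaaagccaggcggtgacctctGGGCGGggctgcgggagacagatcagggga

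Window 1 has a GC content of 60.7% with 7 CpG dinucleotides, and window 3 has 55.3% with 13. The median GC content of all windows is 52.7%. Window 1 holds 1 AP-1 match, which begins at -45 from the start, and 1 GC box, which begins at -111. Window 3 holds a GC box that begins 20 bases after its start and 0 AP-1 matches. Of all 32851 windows of the promoter set, 5.20% hold an AP-1 match and 35.7% a GC box. The other members with a window (*Uck1*, *Uck2*, *Cda*, *Cad*, *Umps* and *Ctps*) hold 0 AP-1 matches. They hold between 0 and 4 GC boxes each, the 4 being in *Uck2*. The E-box CACGTG, found in 7.15% of all windows, is in 0 of the 11 windows of the members. Factor binding was not measured, and the matches are a description of these letters only.

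*Eef1e1*, the gene that encodes AIMP3, had log2 ratios of AIMP3-depleted over control of -0.90 on both arrays (mean -0.90 ± 0.0066, SD, n = 2; 4.76e-05 as its p by limma, adjusted by Benjamini-Hochberg over all genes), which follows the labels. The sources used here do not say whether its probe lies in the deleted part. All ratios are given after background correction and loess normalization of each array, which sets most genes near 0. The median over all tested genes was 0.02, and the median SD between the arrays was 0.048. The median signal was between 2.68 and 3.31 times the local background in the 4 channels, and 0 spots were saturated. All 12 mESC markers were well above background in the control channel, among them *Pou5f1*, *Nanog* and *Sox2*. Their summed processed signal, which is the signal after background subtraction and dye normalization by the scanner software, was 124095 and 128249 in the control channels and 128198 and 130929 in the AIMP3-depleted channels. Bright probes weigh most in this sum, and the brightest marker, *Dppa5a*, had a log2 ratio of 0.50. *Pou5f1*, *Nanog* and *Sox2* were lower, at -0.48, -0.38 and -0.53 (-0.25, -0.17 and -0.29 with median centring), with another probe of *Nanog* at 0.06. The log2 ratios of the 12 mESC markers had a median of -0.16, which median centring turned to 0.09 (0.18 for all genes). Of these 12, 7 were lower and 3 higher at an adjusted p under 0.05 by limma, where 23.7% of all tested genes were lower and 30.6% higher. Of 12 fibroblast markers 11 were tested (*Lum* was too dim), all with a positive ratio, and 9 passed 1.5-fold with p under 0.05 by limma (7 by the methods' t-test; median log2 ratio 0.82), where 5.53% of all tested genes were called higher. The labels describe feeder layers of fibroblasts as the usual culture, whereas the methods give fibroblast-conditioned medium for drug treatment. The summed signal of these markers was 11871 and 11728 in the control channels and 22991 and 22963 in the AIMP3-depleted channels. Their part in the ratios of the pyrimidine genes was not tested.

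*Upp1* was lower in AIMP3-depleted mESCs on both arrays, at 42.4% of its level in the control pool, whereas the 7 other members lay between 80.8% and 122% of theirs. The processed signal of its bright probe in the control channel was 6601 beside replicate 1 and 6444 beside replicate 2. In the AIMP3-depleted channel it was 2874 and 2632. The control channels, which hold the same pooled RNA, differed by -0.03 on the log2 scale between the arrays (replicate 2 minus replicate 1), and the AIMP3-depleted channels by -0.13. Because *Upp1* was chosen for its ratio in these same signals, their separation is a description. The differences between the arrays hold no spread between control cultures. The log2 ratio was -1.18 for replicate 1 and -1.29 for replicate 2, a mean of -1.24 ± 0.073 (SD, n = 2), or 2.36-fold lower. In bulk RNA, less *Upp1* RNA per cell and fewer cells that express it cannot be told apart.

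**Figure D1:**
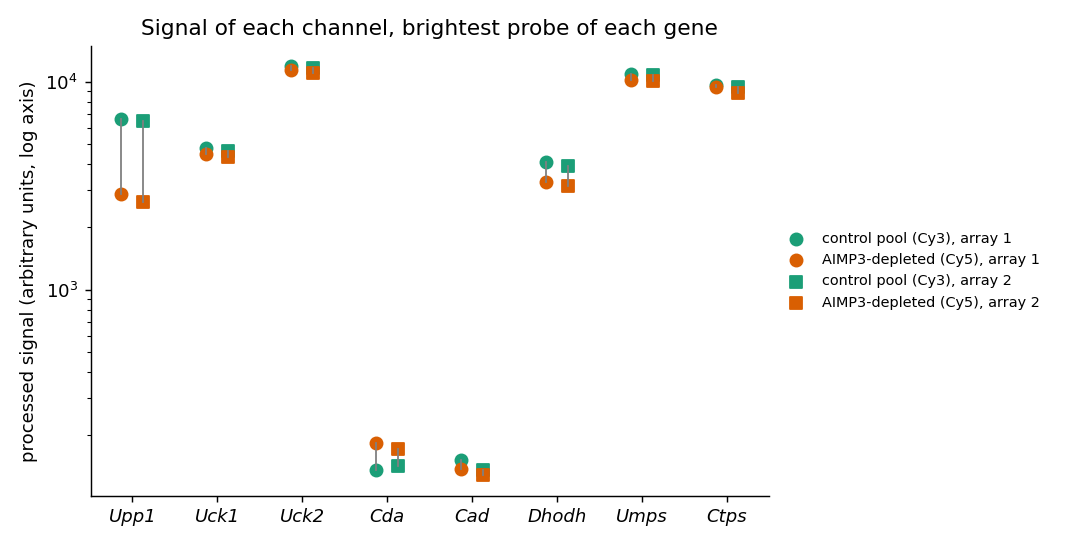
Processed signal in arbitrary units (log axis) of the brightest probe of each gene, with the control pool (Cy3) in green and AIMP3-depleted cells (Cy5) in orange, circles for the replicate 1 array and squares for the replicate 2 array. A line joins the channels of an array. For *Upp1* the control signals are 6601 and 6444 and the depleted signals 2874 and 2632, the widest separation of the 8 genes, while signals of different genes come from different probes and cannot be compared in level.

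The array also carries another probe for *Upp1*, which was well above background in 0 of 4 channels and was not tested. Its processed signals were 14.4 and 11.2 in the control channels and 6.28 and 9.91 in the AIMP3-depleted channels. With values not well above background, its log2 ratios of -0.32 and -0.04 give no level, and the measurement of *Upp1* rests on 1 probe with 1 spot per array.

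Set among all genes, *Upp1* was at rank 4 from the lowest of 24022 genes after loess, with 0.0125% of genes lower. Its rank was 10 with median centring and 37 with the processed signals and with the deposited values, so it stood in the low tail in each but not at a fixed place. After loess, of 14294 genes that have a RefSeq name and were well above background in every channel, 2 were lower, *Otx2* (log2 ratio -1.66), a transcription factor of the epiblast and anterior neural tissue, and *Ly6g6e* (-1.26), a member of the Ly6 family. The nearest genes above it after loess were *Klk1b5* (-1.24), a kallikrein-related peptidase, *Ndufa4l2* (-1.22), a mitochondrial protein known for its induction in hypoxia, and *Egln3* (-1.19), a prolyl hydroxylase that acts on HIF. Likeness was taken as the difference of the mean log2 ratio from that of *Upp1* over the 2 arrays, and was 0.42 for *Otx2*, 0.022 for *Ly6g6e*, 0.00057 for *Klk1b5*, 0.016 for *Ndufa4l2* and 0.043 for *Egln3*. The arrays of *Upp1* themselves differed by more than the distance to any of these genes apart from *Otx2*, so their order is not resolved. *Klk1b5*, *Ndufa4l2* and *Egln3* were all lower than *Upp1* with the processed signals, the deposited values and median centring. For *Ndufa4l2* the arrays gave -1.04 and -1.40, and for *Egln3* -1.01 and -1.38, a wider spread than that of *Upp1*.

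**Figure D2:**
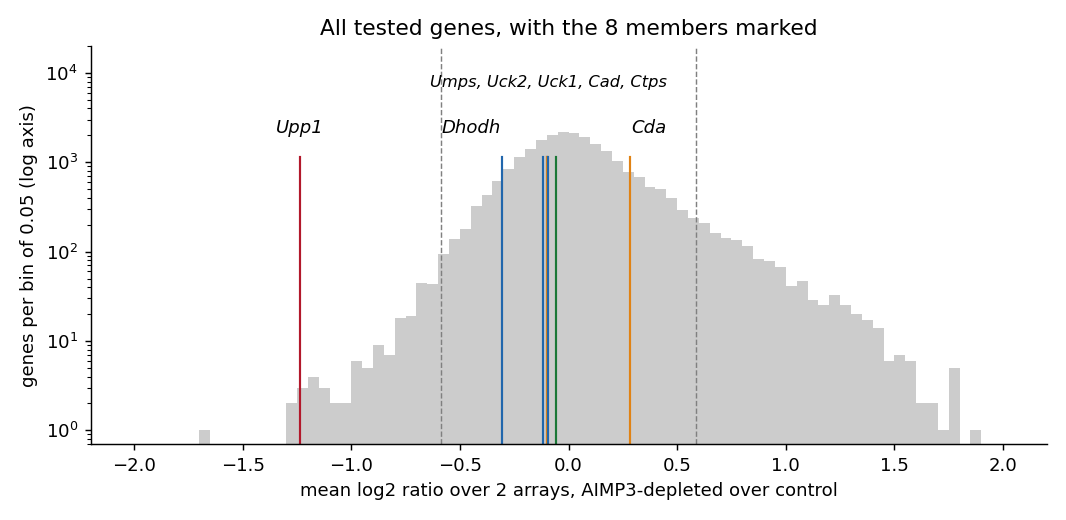
Number of genes (log axis) in bins of 0.05 of the mean log2 ratio of AIMP3-depleted over control for the 24022 tested genes, in grey. Vertical lines mark *Upp1* at -1.24, *Dhodh* at -0.31, *Cda* at 0.28 and the 5 remaining members between -0.12 and -0.06, and dashed lines mark 1.5-fold.

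The enzymes that act on uridine and cytidine from the salvage side showed no such difference. *Uck1*, a uridine-cytidine kinase, had processed signals of 4798 and 4644 in the control channels and 4497 and 4334 in the AIMP3-depleted channels. Its log2 ratios were -0.12 and -0.08, a mean of -0.10 ± 0.025 (SD, n = 2). *Uck2*, the other uridine-cytidine kinase, had control signals of 11827 and 11576 and AIMP3-depleted signals of 11389 and 10972. Its log2 ratios of -0.07 and -0.13 gave the same mean of -0.10 ± 0.043 (SD, n = 2). For both kinases the depleted signals lay just below the control signals. Since 29.8% of all tested genes had a lower ratio than *Uck1* and 29.7% a lower ratio than *Uck2*, neither stood apart from the bulk of the genes.

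*Cda*, which encodes cytidine deaminase, was the one member with a positive mean ratio. Its processed signals were low, at 136 and 142 in the control channels and 184 and 171 in the AIMP3-depleted channels, although well above background in all 4. The log2 ratios were 0.31 and 0.25, a mean of 0.28 ± 0.042 (SD, n = 2), or 122% of control, and 82.6% of all genes had a lower ratio.

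In de novo synthesis the 3 genes lay below 0 by unequal amounts. *Cad* encodes the trifunctional protein of the first steps and had processed signals of 152 and 135 in the control channels and 138 and 128 in the AIMP3-depleted channels. Its log2 ratios were -0.11 and -0.08 (mean -0.09 ± 0.028, SD, n = 2), and the channels overlapped between the arrays. *Dhodh* encodes the mitochondrial enzyme that oxidizes dihydroorotate to orotate. Its control signals were 4106 and 3921 and its AIMP3-depleted signals 3274 and 3158. Its log2 ratios of -0.31 and -0.30 gave a mean of -0.31 ± 0.0085 (SD, n = 2), or 80.8% of control. It was the lowest member after *Upp1*, with 7.68% of all genes lower.

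*Umps* encodes the enzyme that turns orotate into UMP and was measured by a pair of probes that differed in sign. The brighter probe gave control signals of 10873 and 10733 and AIMP3-depleted signals of 10188 and 10093, with log2 ratios of -0.12 and -0.11 (mean -0.12 ± 0.0071, SD, n = 2). The dimmer probe gave control signals of 626 and 593 and AIMP3-depleted signals of 626 and 617, with log2 ratios of 0.04 and 0.11 (mean 0.07 ± 0.047, SD, n = 2) and channels that overlapped. The probes lay further apart than the arrays did within either probe, at 92.3% and 105% of control. *Ctps*, which encodes the CTP synthase that aminates UTP to CTP, had control signals of 9670 and 9457 and AIMP3-depleted signals of 9377 and 8790. Its log2 ratio was -0.06 on both arrays (mean -0.06 ± 0.00016, SD, n = 2), and an SD this small from 2 arrays is itself poorly measured.

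**Figure D3:**
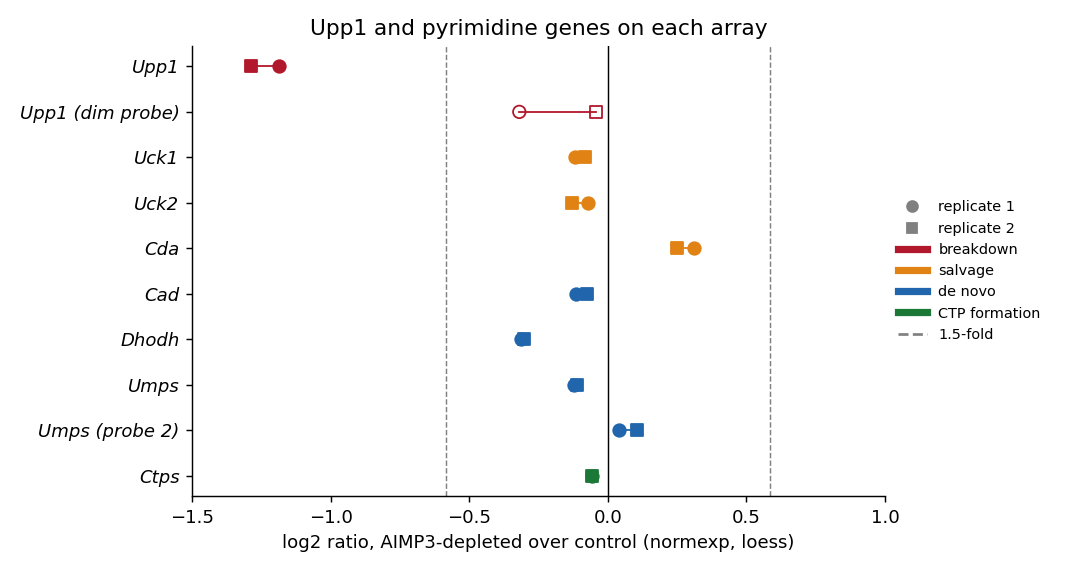
Log2 ratio of AIMP3-depleted over control for every probe of the 8 genes, with circles for replicate 1, squares for replicate 2 and colours for the role of the gene, and dashed lines at 1.5-fold. The bright probe of *Upp1* is at -1.18 and -1.29, outside the dashed lines on both arrays, open symbols are its dim probe that was not well above background, and the remaining probes lie between -0.31 and 0.31.

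Set against the other routes, *Upp1* differed from the lowest other member by -0.87 in replicate 1 and -0.99 in replicate 2, on the log2 scale, and that member was *Dhodh* both times. The mean of the 3 de novo genes was -0.18 and -0.16, and *Upp1* differed from it by -1.002 and -1.13. Because *Upp1* was chosen for its ratio, the gap is a description. The 7 other members had a median of -0.10, and 6 of them were negative, where 47.3% of all tested genes were negative. Median centring of each array in place of loess moved the median of all genes to 0.18 and the 7 members to a median of 0.20, and then 2 of the 8 members remained below 0, *Upp1* (-0.98) and *Dhodh* (-0.07). The sign of the ratios of *Uck1*, *Uck2*, *Cad*, *Umps* and *Ctps* therefore turned with the dye normalization, whereas the difference between *Upp1* and the lowest other member stayed between -0.93 and -0.91 under each background correction and normalization tried.

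**Figure D4:**
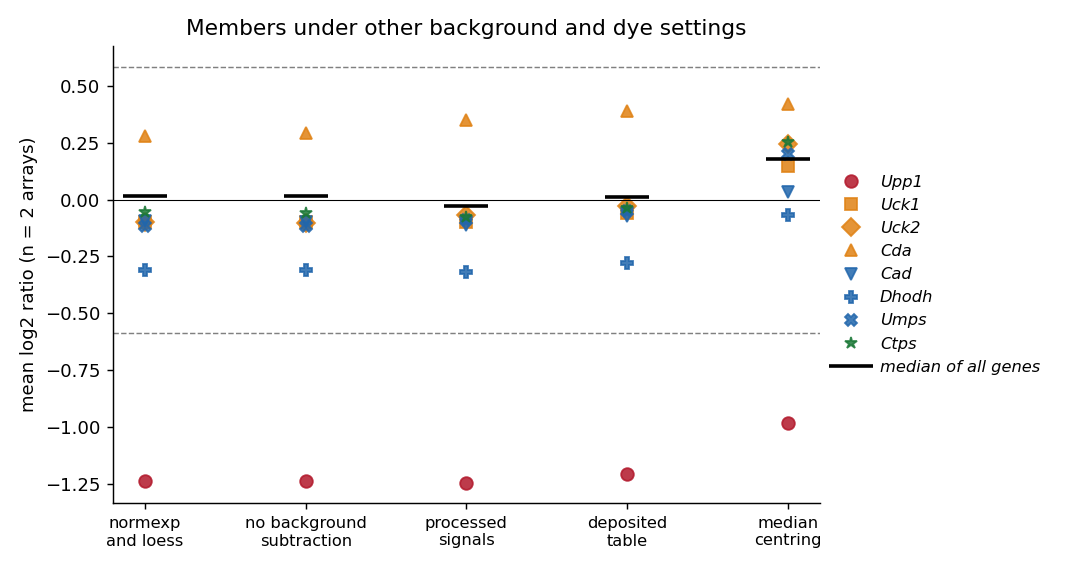
Mean log2 ratio (n = 2 arrays) of the 8 genes under 5 background and dye settings, with a black bar for the median of all tested genes and dashed lines at 1.5-fold. *Upp1* lies between -1.25 and -0.98 in each setting, below the lower dashed line, while with median centring the other genes move upward together with the median of all genes (0.18).

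The neighbourhood of these 8 genes was examined with 11 lists of pyrimidine genes by role, 63 genes in all, of which 58 were tested. Of the 50 tested genes that are not members, 1 passed 1.5-fold with p under 0.05 by limma in the lower direction and 0 in the higher direction, where 6.32% of all tested genes were called, 0.791% lower and 5.53% higher. The methods' t-test with the same fold also called 1 of the 50. Under both tests the one call was *Prps1*. At any fold, 23 of the 50 (46%) had a lower ratio with an adjusted p under 0.05 by limma and 7 (14%) a higher one, where 54.3% of all tested genes passed, 23.7% lower and 30.6% higher. The median ratio was -0.13 over the 50 genes and -0.11 over the 58 that include the members, against 0.02 for all genes. With median centring the median of the 58 turned to 0.10, below the 0.18 of all genes.

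*Prps1*, a synthetase of phosphoribosyl pyrophosphate (PRPP), the ribose donor used by UMPS and by purine synthesis and salvage, fell in AIMP3-depleted mESCs. Its log2 ratios were -0.66 and -0.65 (mean -0.66 ± 0.0059, SD, n = 2; adjusted p = 0.000107 by limma). Median centring gave -0.35, which is under 1.5-fold. All 4 genes of PRPP supply had negative ratios. *Prps2*, the other synthetase, was at -0.31 (adjusted p = 0.00178 by limma), and of the associated proteins *Prpsap2* was at -0.29 (adjusted p = 0.00218) and *Prpsap1* at -0.12 (adjusted p = 0.0603), which turned to 0.28 with median centring. Median centring gave -0.14 for *Prps2* and -0.08 for *Prpsap2*. None of these 3 passed 1.5-fold.

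Uridine and uracil breakdown beyond *Upp1* is carried out by few genes that this array could measure in mESCs. *Upp2*, the other uridine phosphorylase, and *Dpyd*, which reduces uracil, had no probe that passed the filter on dim spots and were not tested. *Dpys* and *Upb1* encode the enzymes after *Dpyd*. The ratio of *Upb1* was -0.29 (adjusted p = 0.00208 by limma; -0.44 with the processed signals and -0.17 with median centring). That of *Dpys* was -0.22, with 2 of 4 channels well above background, 1 on each array. Each ratio of *Dpys* thus sets a channel above background against one that was not, and gives no measured level. *Dpys* passed 1.5-fold with the processed signals and with the authors' deposited table under the same limit, and it is among the 23 lower genes counted above. *Tymp*, a phosphorylase that acts on thymidine, was at 0.21 (adjusted p = 0.0103), and at 0.16 with the processed signals (adjusted p = 0.0932) and 0.42 with median centring. The ratios within this role thus pointed both ways, and *Upp1* alone was over 1.5-fold after loess. Ribose 1-phosphate, the sugar product, is turned to ribose 5-phosphate by *Pgm2*, which had a ratio of -0.27 (adjusted p = 0.00302 by limma), or -0.10 with median centring (adjusted p = 0.213). *Rbks*, a kinase of free ribose, had 0.32 (adjusted p = 0.00168), or 0.49 with median centring.

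In deoxypyrimidine synthesis, which supplies dCTP and dTTP for DNA, 6 of 8 genes had a lower ratio with an adjusted p under 0.05 by limma and 0 a higher one, beside 23.7% and 30.6% of all tested genes, and 0 passed 1.5-fold. The median was -0.29, which median centring moved to 0.05, with 3 of 8 negative. In that setting 23.7% of all tested genes were negative, with a median of 0.18. *Dut*, which cleaves dUTP to dUMP, was lowest after loess, with -0.46 and -0.30 on the arrays (mean -0.38, adjusted p = 0.00167 by limma), and its mean was -0.10 with median centring (adjusted p = 0.197). The other 5 genes are *Dctpp1*, *Dctd*, *Rrm2*, *Rrm1* and *Dtymk*, between -0.36 and -0.27, of which *Rrm1* and *Rrm2* encode subunits of ribonucleotide reductase. *Dctd* lay below *Dut* with the processed signals, the deposited values and median centring. *Tyms*, thymidylate synthase, was highest after loess, with 0.22 and 0.03 on the arrays (mean 0.13, adjusted p = 0.107), and at 0.30 with median centring. *Rrm2b* (0.04 after loess) exceeded it with no background subtraction, the processed signals and the deposited values. Salvage of deoxynucleosides was measured by 3 genes, from *Tk1*, the cytosolic thymidine kinase, at -0.15 (adjusted p = 0.0297) to its mitochondrial counterpart *Tk2* at 0.07. *Tk1* turned to 0.10 with median centring, and its adjusted p was 0.0564 with the processed signals.

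In the formation of UTP and CTP, 4 of 9 genes (44.4%) had a lower ratio at an adjusted p under 0.05 by limma and 1 (11.1%) a higher one, beside 23.7% and 30.6% of all tested genes. The 5 are nucleoside diphosphate kinase genes. *Nme2* was highest, at 0.48 (adjusted p = 0.000373), with 1.00 under median centring, 0.25 with the processed signals and 0.29 with the deposited values. The 4 lower ones, *Nme3* (-0.17, adjusted p = 0.0191), *Nme1*, *Nme4* and *Nme6*, all turned positive with median centring, between 0.07 and 0.16. These values stayed below the median of all genes in that setting, 0.18. The probes of *Nme1* also differed in sign, at -0.15 and 0.26. Members of this family are close in sequence, and cross-hybridization was not tested. *Uckl1*, a relative of the uridine-cytidine kinases, had 0.02 and 0.17 on the arrays (mean 0.10, adjusted p = 0.17) and was at 0.30 with median centring. *Uprt* was not tested.

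The nucleotidases remove phosphate from nucleotides and so yield nucleosides. *Nt5c3*, which acts on pyrimidine monophosphates, was lowest at -0.46 (adjusted p = 0.000439 by limma; -0.24 with median centring), and *Nt5m*, a mitochondrial enzyme, was highest at 0.49 (adjusted p = 0.000964), with 2 lower and 2 higher of 8 genes (25% each) at an adjusted p under 0.05, near the 23.7% and 30.6% of all tested genes. With median centring *Nt5m* passed 1.5-fold (0.63), and with the processed signals its adjusted p was 0.0554. Among transporters, 3 of 8 tested genes (37.5%) were lower and 1 (12.5%) higher at an adjusted p under 0.05, beside the same shares of all genes. The mitochondrial pyrimidine nucleotide carrier *Slc25a33* was lowest, at -0.37 (adjusted p = 0.000834), and at -0.14 with median centring (adjusted p = 0.0641). Its relative *Slc25a36* was highest, at 0.19 (adjusted p = 0.0113), and at 0.12 with the processed signals (adjusted p = 0.0874) and 0.41 with median centring. Among the equilibrative nucleoside transporters, *Slc29a1* was at 0.03, *Slc29a2* at -0.02, *Slc29a3* at -0.13 and *Slc29a4* at -0.28, the latter pair with adjusted p of 0.0475 and 0.0056 by limma and ratios of -0.04 and -0.05 under median centring. In UDP-sugar formation, which draws on UTP, *Ugdh*, which oxidizes UDP-glucose, was highest at 0.50 (adjusted p = 0.000265) and passed 1.5-fold with median centring (0.72). *Uxs1* was lowest at -0.15 (adjusted p = 0.0383), which median centring turned to 0.03, below the 0.18 of all genes, while the processed signals gave -0.24.

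**Figure D5:**
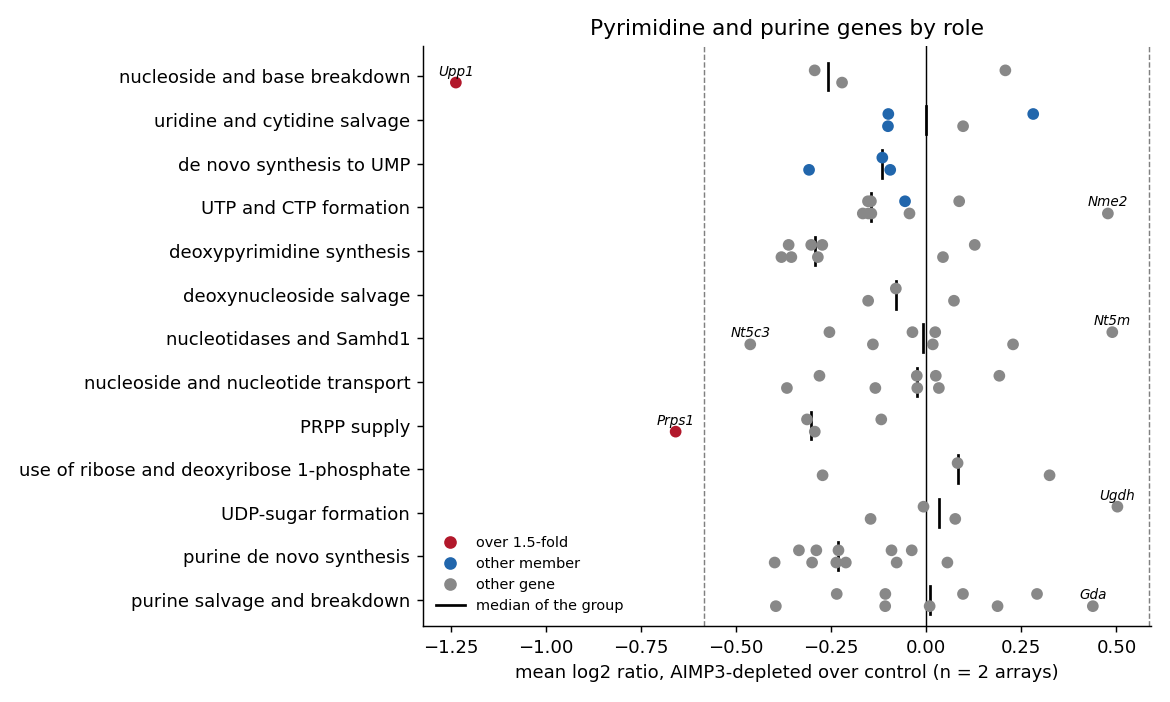
Mean log2 ratio (n = 2 arrays) of the tested genes of each pyrimidine role and of a pair of purine lists, 1 point per gene, with a black bar for the median of a role and dashed lines at 1.5-fold. The red points are *Upp1* at -1.24 and *Prps1* at -0.66, the only genes of these lists beyond the dashed lines after loess, and the blue points are the other members.

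Purine genes were listed for comparison. After loess, of 20 tested genes 0 passed 1.5-fold with p under 0.05, by limma or by the methods' t-test, whereas *Aprt* was called higher with median centring (0.63) and *Gda* with the processed signals and the deposited values. After loess 9 were lower and 3 higher at an unadjusted p under 0.05 by limma without regard to fold, where the shares of all tested genes were 27% and 33.5%. The counts were also 9 (45%) and 3 (15%) with adjustment, beside 23.7% and 30.6% of all genes, and the median ratio was -0.11, the same as that of the 58 pyrimidine genes. In purine de novo synthesis 10 of 11 genes were negative (median -0.23), where 47.3% of all tested genes were negative. They ran from *Paics* at -0.40 (adjusted p = 0.000655 by limma; -0.07 with an adjusted p of 0.383 under median centring) to *Impdh1* at 0.06 (adjusted p = 0.361; 0.28 under median centring). *Gart* took the lowest place under the processed signals, the deposited values and median centring. With median centring 4 of 11 were negative (median 0.02), where 23.7% of all tested genes were negative (median 0.18). In purine salvage and breakdown the range ran from *Pnp2*, a purine nucleoside phosphorylase, at -0.40 (adjusted p = 0.000651; -0.20 with median centring) to *Gda*, guanine deaminase, at 0.44 (adjusted p = 0.00335), with 0.59 and 0.29 on the arrays. *Gda* was dim, and its ratio was 1.05 with the processed signals and 1.09 with the values that the authors deposited. *Pnp2* carries out on purine nucleosides the kind of cleavage that *Upp1* carries out on uridine.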

How the data were processed

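The authors deposited the scanner output of 2 Agilent arrays, made with Feature Extraction (11.5.1.1 per the file headers): the median intensity of each spot and its local background, processed signals, a log10 ratio and its p-value, of which the intensities and signals were used. Their deposited table of log2 ratios equals the log2 ratio of the processed signals plus 0.040 and 0.039 (within 0.01 for 99.7% of 55681 probes; column medians 0.091 and 0.11), so its scale, centring and direction are known, and 0 columns of per-sample values were left out. The methods describe ratios of control over test; here they are AIMP3-depleted over control.

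Spots with an outlier flag (215 and 227) were dropped, background was corrected with normexp (offset 50), each array was normalized by loess with control spots at weight 0, and spots were averaged by probe. Probes had to be well above background on both arrays in 1 channel or more (33012 were tested; 22669 were not), and the brightest stands for its gene. RefSeq names came from a table on GRCm38.p6 (14975 of 24022 genes; the others keep their listed name). The array was designed on another build, so no probe coordinates are given. The mean log2 ratio was set against 0 by limma's lmFit and eBayes (1 residual and 5.29 prior degrees of freedom). A call needs over 1.5-fold and p under 0.05, and p-values were adjusted over all genes: 1518 (6.32%) were called, and 13044 (54.3%) had an adjusted p under 0.05 at any fold. Loess, the fit and the calls were run on simulated data with changes of random sign and equal noise for all genes. The simulation left out background correction, the filter and the choice of probe. It also lacked the excess of higher calls seen here, so it does not test the choice of loess.

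The members and lists were chosen with earlier results of these data known. Genes named are the members, Eef1e1, genes of the lists that were called, the highest and lowest gene of each role, and the 3 named genes nearest to Upp1 on either side (2 below); others were named after their values were seen. The alternatives were other background, dye, filter, probe, test and threshold settings, the deposited table and each replicate left out. The 2 arrays limit the precision. The software was jsonlite (2.0.0), data.table (version 1.17.8) and limma (3.58.1) in R (4.3.3).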

Additional observations from a re-analysis of the deposited data

How the results depend on the processing

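*Upp1*, chosen by its ratio, was at -1.24 without background subtraction, -1.25 with the processed signals, -1.21 with the deposited table, which is those signals plus a constant, and -0.98 with median centring. Filters and the probe rule could not change it, as 1 probe was tested. Leaving out 1 replicate gave -1.29 to -1.18. Calls among pyrimidine genes include *Upp1*, which was chosen by its ratio and counts as a description. They numbered 2 (*Upp1* and *Prps1*), 4 with median centring (*Upp1*, with *Nme2*, *Nt5m* and *Ugdh* in the higher direction), 1 at 2-fold, 33 of 58 at any fold with an adjusted p under 0.05 (3 of them members, which entered the fit across all genes but whose values are a description; the other 50 genes gave 23 lower and 7 higher; 54.3% of all genes passed), and 2 to 3 with 1 replicate left out. All genes called numbered 1518, and 2720 with the processed signals, 2891 with median centring, 2747 with the deposited table, 298 at 2-fold, 13044 at any fold with an adjusted p under 0.05, and 1522 to 1651 by fold alone with 1 replicate left out, where no test is possible. The methods' t-test called 993 genes, and 0 after Benjamini-Hochberg adjustment (smallest adjusted p 0.133 over all genes); *Klk1b5*, *Ndufa4l2* and *Egln3* were not called by it. Higher genes made up 87.5% of the calls after loess, 71.5% with the processed signals, 77.5% with the deposited table and 97.8% with median centring. With median centring *Nme3* turned to 0.068, *Tk1* to 0.10, *Prpsap1* to 0.28 and *Uxs1* to 0.028, while the median of all genes moved to 0.18. The cause of these moves was not tested. Adjusted p-values by limma under median centring are against 0, not against the 0.18 of all genes. They followed the mean with little regard to its spread: *Tyms* (0.30 ± 0.19, SD, n = 2) and *Uckl1* (0.30 ± 0.052) had 4.81e-05 and 4.74e-05. Such p-values therefore cannot be set beside those after loess. Each ratio pairs the channels of 1 array, but replicates could not be paired with control cultures of their own because the control is 1 pool hybridized to both arrays. Dim probes limit *Cda*, *Cad*, *Dpys* and *Gda*.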
